A study of Mus musculus with 8 samples.

Results

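Stomach, pancreas and duodenum arise side by side from the gut endoderm, and the fate of each stretch is set by a small number of transcription factors. SOX2 is the regulator of esophagus and stomach, CDX2 and its relative CDX1 direct the intestine, and KLF5 is a zinc finger factor of the growing gut epithelium. Differentiated gut epithelium is recognised by what it makes: CDH17 is the cadherin of intestinal cells, TFF2 is a trefoil peptide of gastric mucous cells and duodenal glands, and TFF3 is the trefoil peptide of intestinal goblet cells. These 7 genes, *Sox2*, *Cdx1*, *Cdx2*, *Klf5*, *Cdh17*, *Tff2* and *Tff3*, were taken from the 24341 genes of the expression table by their symbols, and all 7 were found. They were chosen by role and with their FPKM, a length- and depth-scaled fragment count, in these same WT and mutant buds already known, so their differences between genotypes are given as a description and were not tested.

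Total RNA was sequenced from 8 individual pancreas buds of embryos at E11.0 (about 40 somites), all labelled as strain CD1. Of these, 5 were from WT embryos and 3 from *Pdx1Creearly;Lats1f/f;Lats2f/f* embryos, called *Lats1/2PanKO* here. In the mutants, Cre under the *Pdx1* promoter removes the Hippo pathway kinases *Lats1* and *Lats2* from *Pdx1*-expressing epithelium, while mesenchyme, vessels, nerves and blood keep both genes. Mesenchyme was pulled away with forceps before RNA was isolated. No treatment was given to either group. Means are followed by ± SD, with n = 5 for WT and n = 3 for *Lats1/2PanKO*, unless said otherwise.

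The buds still held much tissue besides epithelium. Markers of gut mesenchyme summed to between 546 and 910 FPKM in WT buds and between 302 and 681 FPKM in *Lats1/2PanKO* buds. Tested genes are those averaging 0.5 FPKM or more. All 14 tested markers had a lower mean log2(FPKM + 1) in the mutants, as did 7316 of 13777 tested genes. Without *Lats1/2PanKO* replicate 3 the median difference of the 14 markers went from -0.43 to -0.14. *Tlx1*, *Tcf21*, *Bmp4* and *Nkx3-2* were then higher in the mutants. All 19 epithelium markers had a higher mean in the mutants, by a median of 1.06 in log2(FPKM + 1). This median was 0.68 without *Lats1/2PanKO* replicate 3. Of the 19, 17 did not overlap between genotypes, where 4.46% of all tested genes had every mutant above every WT bud. In bulk tissue, fewer cells of a type and less RNA per cell cannot be told apart. *Lats1/2PanKO* replicate 3 stood apart, with the highest mean of the epithelium markers (4.76, against 3.85 and 3.56 in the other mutant buds and 2.82 to 3.06 in WT) and the lowest of the gut mesenchyme markers (3.64, against 4.36 to 4.74 in the other 7 buds). *Lats1* lay between 10.1 and 13.8 FPKM in the mutants, below the WT range of 14.1 to 16.6, and *Lats2* overlapped between genotypes (11.1 to 13.4 against 11.6 to 14.7). FPKM are summed over the whole gene, so they do not separate the deleted exons from the rest. *Pdx1*, which marks pancreas and duodenum and was chosen after its values were seen, was at 18.0 ± 4.78 FPKM in WT buds and at 15.3 to 48.5 FPKM in the mutants.

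The 7 genes fell into 3 tiers of level. FPKM scales the fragments of a gene to its transcript length and to the depth of the library, so these levels can be set beside each other. *Klf5* was the highest (5.39 ± 1.18 FPKM in WT), followed by *Tff3* (1.70 ± 0.636) and *Sox2* (0.498 ± 0.272). The WT ranges of these 3 genes lay apart, whereas in the mutants those of *Tff3* and *Sox2* overlapped. The other 4 were near 0, in the order *Cdx2* (0.114 ± 0.203), *Cdh17* (0.0528 ± 0.0630), *Cdx1* (0.0123 ± 0.0276) and *Tff2* (0 in every bud), and from *Sox2* downward neighbours in this order did not differ beyond their WT spread. The genotypes overlapped in all 7 genes. Of the 13777 genes averaging 0.5 FPKM or more, to which only *Klf5*, *Tff3* and *Sox2* belong, 7.51% did not overlap between genotypes, 4.46% with the mutants higher and 3.06% with the mutants lower.

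**Figure D1:**
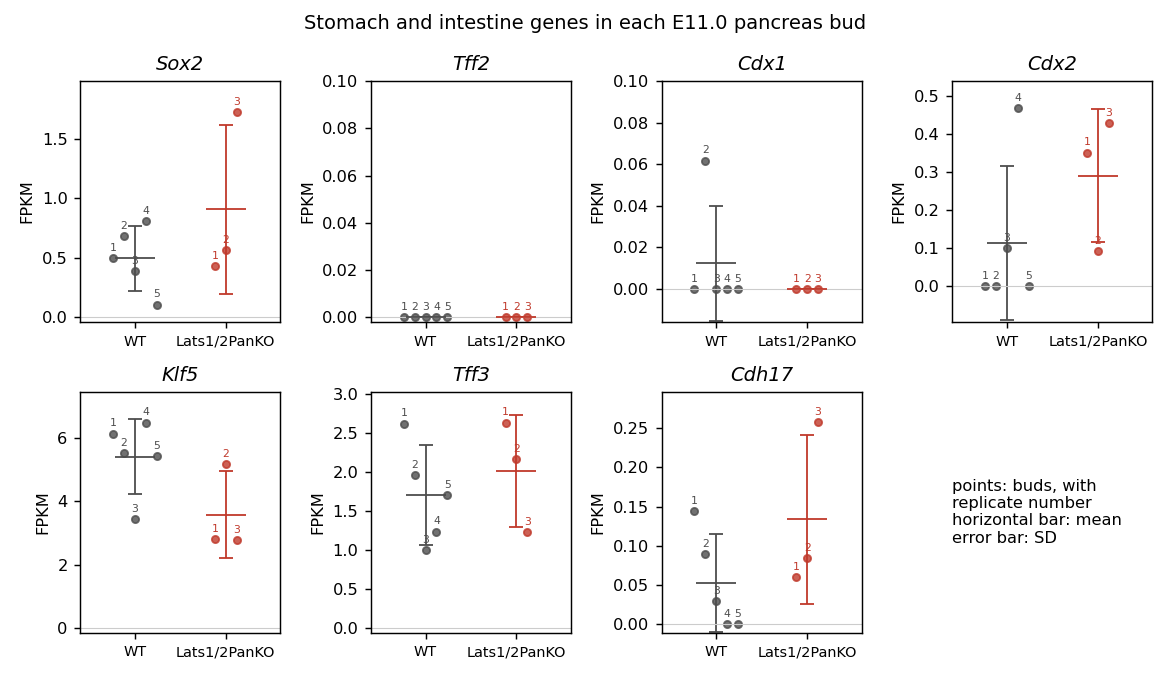
FPKM of the 7 genes in each bud, 1 panel per gene with its own axis, WT in grey and Lats1/2PanKO in red. Points are buds with their replicate number, horizontal bars are means and error bars are SD; the genotypes overlap in every panel, the mutant means are lower for Klf5, and Tff2 is at 0 throughout.

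How much sequence lay behind each value decides how far it can be read. Low FPKM values fall on steps, and from genes with 1 annotated transcript the step of a single fragment was worked out for each library. For *Cdx2*, as an example, 1 fragment was worth 0.0446 to 0.0596 FPKM, the most in WT replicate 5, the shallowest library. At these steps *Klf5* rested on about 87 to 218 fragments per bud. *Sox2* rested on 2 to 34, *Tff3* on 3 to 9, *Cdx2* on 0 to 10, *Cdh17* on 0 to 9, and *Cdx1* on 1 fragment in the whole experiment. *Klf5* was the only one of the 7 with more than 34 fragments in any bud.

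**Figure D2:**
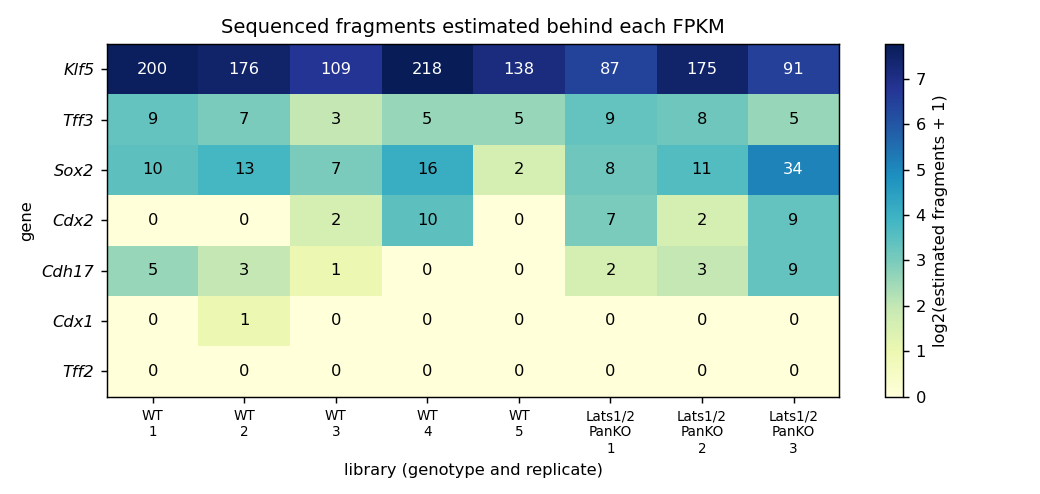
Estimated number of sequenced fragments behind each FPKM value, rounded, for the 7 genes (rows, in order of level) in the 8 libraries (columns); colour is log2(fragments + 1). Klf5 has 87 to 218 fragments in every library, and no other gene exceeds 34 in any library.

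Among the regulators, *Sox2* was present at a low level in every bud. It is a single-exon gene on chromosome 3 of GRCm38, plus strand, from 34650405 to 34652461 in GENCODE M21. It lies inside the long noncoding gene *Sox2ot* on the same strand, and the deposited table gives both genes the same locus, so strand does not separate their fragments there. *Sox2ot* itself was listed at 0.0340 to 0.364 FPKM. *Sox2* was at 0.50, 0.685, 0.390, 0.810 and 0.107 FPKM in WT replicates 1 to 5 and at 0.433, 0.566 and 1.73 FPKM in *Lats1/2PanKO* replicates 1 to 3. Mutant replicate 3 was above all other buds, and mutant replicates 1 and 2 lay within the WT range. The mutant mean was 1.82 times the WT mean, and leaving out *Lats1/2PanKO* replicate 3 brought this ratio to 1.00. On the log2(FPKM + 1) scale the difference, mutant minus WT, was 0.31 (SE 0.32), or 0.02 without that bud. *Sox2* reached the mean of 0.5 FPKM asked of tested genes only through that bud, since its mean over the other 7 was 0.499 FPKM.

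*Sox2* is also a gene of neural crest and enteric glia, so nerve and crest markers were read in the same buds. Their mean log2(FPKM + 1) over 12 tested markers was highest in *Lats1/2PanKO* replicate 3 (2.30, against 1.73 to 2.05 in the other 7 buds), and their summed level was 31.6 to 42.2 FPKM in WT and 35.5 to 64.5 FPKM in the mutants. None of the 15 listed markers was at 0 throughout. That bud was the highest of the 8 in 7 of the 15 and the lowest in 1. *Erbb3*, a receptor of crest and glia that epithelia also express, was at 18.4 FPKM there and at 3.58 to 9.47 FPKM in the other buds. *Ednrb*, a receptor of migrating crest, was at 6.79 FPKM there, within its WT range of 5.28 to 9.68 FPKM. The next pair of markers was chosen after their values were seen. *Sox10*, the defining factor of crest and glia, was highest in that bud, at 6.81 FPKM against 1.65 to 3.70 FPKM, and the neuronal gene *Stmn2* was lowest there, at 0.541 FPKM against 1.41 to 3.79 FPKM. Epithelium markers were highest in the same bud, and the part of either cell type in the *Sox2* value was not tested.

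The intestinal regulators were at the edge of detection. *Cdx2* lies on the minus strand of chromosome 5, from 147300805 to 147307270, and has 3 exons. It was listed at 0 in WT replicates 1, 2 and 5, at 0.10 FPKM in replicate 3 and at 0.468 FPKM in replicate 4. The mutants had 0.351, 0.0935 and 0.428 FPKM. The bud with the highest value was WT, although all 3 mutants were above 0 and only 2 of 5 WT buds were. In fragments these values amount to about 0, 0, 2, 10 and 0 in WT and to 7, 2 and 9 in the mutants. The difference was 0.22 on the log2(FPKM + 1) scale (SE 0.16), and 1.14 with 0.1 FPKM added in place of 1. It was lowest without *Lats1/2PanKO* replicate 3, at 0.14, and highest without *Lats1/2PanKO* replicate 2, at 0.34. *Pdx1*, a homeobox gene of the same ParaHox cluster, lies 24956 bases away on that chromosome and had a mean of 18.0 FPKM in WT buds, where *Cdx2* had 0.114 FPKM.

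*Cdx1*, on the minus strand of chromosome 18 from 61018862 to 61036199 with 3 exons, was listed at 0.0617 FPKM in WT replicate 2, the value of about 1 fragment, and at 0 in the other 7 buds. The limit that 0 fragments allow, taken as 3 fragments, is 0.176 to 0.236 FPKM per library for a transcript of its length. The remaining family member, *Cdx4*, was listed at 0 in all buds but *Lats1/2PanKO* replicate 3, where it was at 0.197 FPKM.

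*Klf5*, a factor of proliferating gut epithelium, was the best measured of the 7 by number of fragments. It lies on the plus strand of chromosome 14 from 99298691 to 99315036, with 4 exons in its longest annotated transcript. Its FPKM was 6.12, 5.52, 3.43, 6.47 and 5.42 in WT buds and 2.79, 5.16 and 2.77 in *Lats1/2PanKO* buds. Mutant replicates 1 and 3 lay below all WT buds, whereas replicate 2 was inside the WT range. Mean FPKM was 5.39 ± 1.18 in WT and 3.57 ± 1.37 in the mutants, a ratio of 0.663. The difference of -0.50 on the log2(FPKM + 1) scale (SE 0.27) ranged from -0.73 to -0.38 when single buds were dropped. Over all tested genes, the median difference was -0.01 and the middle 90% ran from -0.38 to 0.50.

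The mean of *Klf5* was lower in the mutants while the means of epithelium markers were higher. Set against *Epcam*, a surface protein of epithelium, *Klf5* amounted to 10.3% to 17.2% of its FPKM in WT buds and to 4.36%, 9.21% and 2.03% in the mutants. The genotypes did not overlap in this ratio. The same held for 69.6% of all tested genes, which had every mutant below every WT bud when divided by *Epcam*. With the E-cadherin gene *Cdh1* as divisor, *Klf5* was at 15.8% to 30.6% in WT and 2.92% to 14.6% in the mutants, and 64.3% of genes separated in this direction. On the log2 scale, relative to the mean of the 19 epithelium markers, *Klf5* was lower by 1.61 (SE 0.56) in the mutants, and 89.1% of genes separated downward. The markers themselves differed by 1.11, which is part of the value for *Klf5*. In the same calculation the difference was -0.96 (SE 0.57) for *Tff3* and -0.81 (SE 0.16) for *Sox2*. For the near-zero genes it returns little more than the difference of the markers, so it is not given for them.

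**Figure D3:**
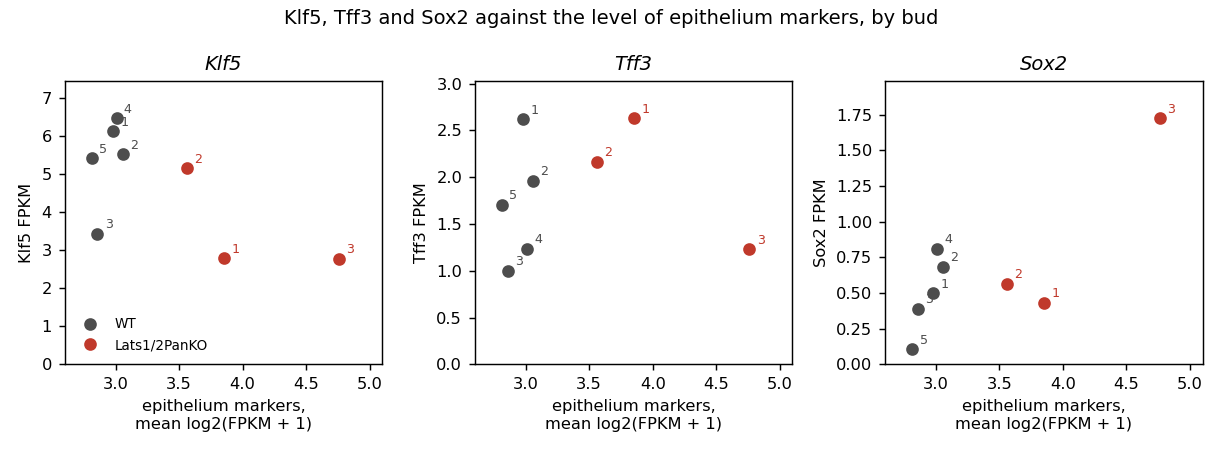
FPKM of Klf5, Tff3 and Sox2 (vertical axes) against the mean log2(FPKM + 1) of 19 epithelium markers (horizontal axis) in each bud, WT in grey and Lats1/2PanKO in red, with replicate numbers. The mutant buds lie to the right at 3.56 to 4.76, Klf5 is lowest in mutants 1 and 3, and Sox2 is highest in mutant 3.

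Differences of both signs were found among relatives of the regulators. *Klf3*, *Klf4* and *Klf6*, zinc finger factors of the same family, had differences of 0.26 (SE 0.13), -0.22 (SE 0.17) and 0.47 (SE 0.20) on the log2(FPKM + 1) scale, and none passed the threshold over all genes (limma, adjusted p = 0.517, 0.669 and 0.427). *Klf6*, the one of these with an unadjusted p under 0.05, averaged 7.06 ± 1.37 FPKM in WT and 10.3 ± 3.22 FPKM in mutants. *Sox3*, of the same SOX subgroup as *Sox2*, averaged 1.06 ± 0.669 FPKM in WT buds and 0.995 ± 0.585 FPKM in mutants.

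The gut products *Cdh17*, *Tff3* and *Tff2* were low or listed at 0. No stomach or duodenum of this age was sequenced, so whether these genes are higher there was not tested. *Cdh17*, an intestinal adhesion molecule on the plus strand of chromosome 4 from 11758147 to 11817895 with 18 exons, was listed at 0.145, 0.0893, 0.0301, 0 and 0 FPKM in WT. Its mutant values were 0.0603, 0.0843 and 0.258 FPKM. As with *Sox2*, its highest value was in mutant replicate 3, with about 9 fragments, and the other mutants were within the WT range. Its ratio of means was 2.54, and 1.37 without that bud. Epithelium markers were also highest there, and their part in the *Cdh17* value was not tested.

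The trefoil genes *Tff3* and *Tff2* lie on the minus strand of chromosome 17, from 31125306 to 31129646 and from 31141049 to 31144282, with 11402 bases between them. *Tff3* was at 2.62, 1.96, 0.999, 1.24 and 1.71 FPKM in WT buds and at 2.63, 2.17 and 1.23 FPKM in the mutants. The mutants spanned almost the whole WT range, and replicate 3, which held the most epithelium marker RNA, was the lowest of them. Means were 1.70 ± 0.636 FPKM and 2.01 ± 0.715 FPKM, a difference of 0.16 on the log2(FPKM + 1) scale (SE 0.26). Dropping mutant replicate 1 gave 0.0064 and dropping mutant replicate 3 gave 0.36. Among WT buds, leaving out replicate 1 gave 0.27, replicate 3 gave 0.06 and replicate 4 gave 0.10. The transcript is only 493 bases long, so these values stand for about 3 to 9 fragments. *Tff2*, 584 bases long, was listed at 0 in all 8 buds, as were 5450 of the 24341 genes. For a transcript this short 0 fragments in a single library still allow up to 0.637 to 0.855 FPKM there, and 0 in all 8 together allow less. The remaining trefoil gene, *Tff1*, was listed at 0.309 FPKM in the first mutant bud and at 0 elsewhere. These limits cover counting error only.

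*Klf5*, *Tff3* and *Sox2*, the 3 genes averaging 0.5 FPKM or more, were each compared with all tested genes in their pattern over the buds. Likeness was taken as the root mean square difference of log2(FPKM + 1), each gene centred on its own mean over the 8 libraries. The genes most like *Klf5* were *Selm*, *Mcoln3* and *Ogfod3*, at 0.13, 0.15 and 0.16, against a median of 0.41 over all genes. *Zbtb8b*, *Zfp473* and *Maob* came closest to *Sox2* (0.11 to 0.14, median 0.39), and *Fibin*, *Gm10767* and *Orai3* to *Tff3* (0.11 to 0.15, median 0.36). These are the nearest genes by selection, so they lie below the median in any case. None of the 9 is a gene of the stomach or intestine lists described next. Only 28 of the 13777 tested genes belong to those lists, so their absence here says little.

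A wider list of 76 stomach and intestine genes, without the 7 above, was read in the same way. It holds regulators and products of both organs, and 75 were in the table. Of these, 47 had a mean under 0.5 FPKM and 12 were listed at 0 in every bud, such as *Gkn1*, *Gkn2* and *Atp4b* of the stomach and *Fabp1*, *Sis*, *Alpi* and *Atoh1* of the intestine, which are named for being at 0. Zeros throughout were no more frequent here than in the whole table, where 5450 of 24341 genes had them. With only pancreas buds sequenced, the zeros could not be compared with stomach or intestine of this age. A mean of 0.5 FPKM or more was reached by 28 of the 75, and by 13777 of the 24341. Only 4 of the 75 had a mean of at least 10 FPKM. By contrast, *Barx1*, a homeobox gene of stomach mesenchyme, was at 173 to 500 FPKM in WT buds and at 115 to 302 FPKM in the mutants (difference -0.75, SE 0.39, limma, adjusted p = 0.526).

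**Figure D4:**
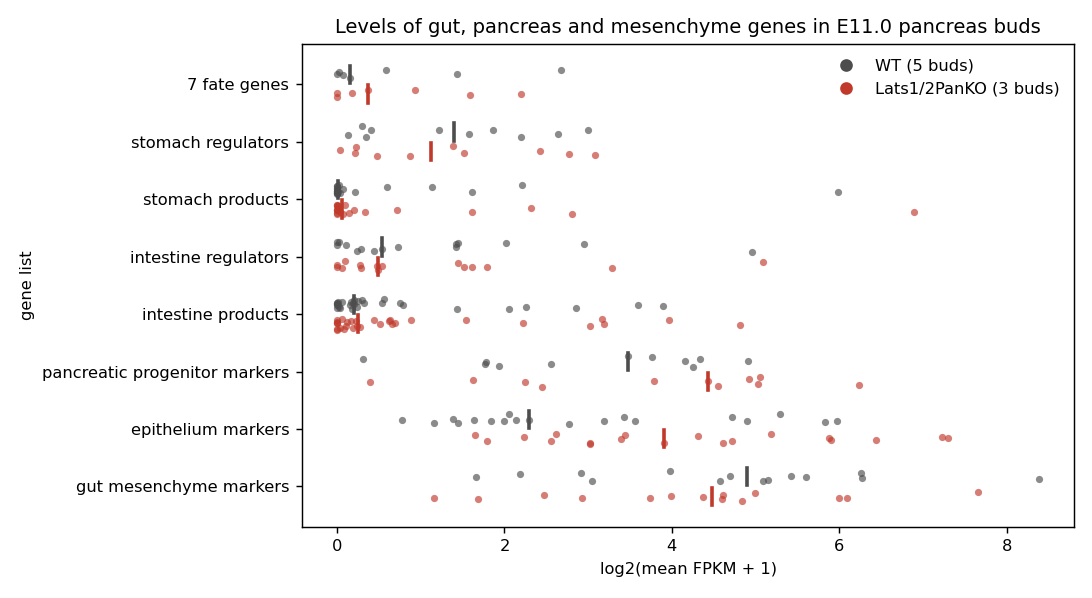
Mean levels, as log2(mean FPKM + 1), of the 7 genes and of lists of stomach, intestine, pancreas, epithelium and gut mesenchyme genes; each point is a gene, WT in grey and Lats1/2PanKO in red, and vertical bars are medians of the list. Most stomach and intestine genes sit near 0, while mesenchyme markers reach the highest levels, Barx1 among them.

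Of the 28 genes of this wider list that were tested, 21 had a higher and 7 a lower mutant mean, where 46.9% of all tested genes were higher. All 19 epithelium markers had a higher mean in the same mutants, and their part in this count was not tested. Over the 28 genes the median difference was 0.17, against -0.01 over all 13777 tested genes. It was 0.04 without *Lats1/2PanKO* replicate 3. None was called at an adjusted p under 0.05, a threshold that 0.0145% of all tested genes passed (limma). Without WT replicate 4 or *Lats1/2PanKO* replicate 2, 1 gene was called, *Krt20*. At an unadjusted p under 0.05 there were 5 higher and 2 lower, 17.9% and 7.14% of the 28, where 6.29% and 4.99% of all genes were, 11.3% in both directions together. This count of 5 was 8 without *Lats1/2PanKO* replicate 1. The count of 2 was 1 without WT replicate 1 or WT replicate 3. Described next, by organ and role, are the 3 genes of smallest p in each group, whether or not that p was under 0.05. *Gata4*, *Gast*, *Tcf7l2*, *Hoxb9* and *Apoa4* were not under it.

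Of 6 tested stomach regulators, 1 was higher and 1 lower at that unadjusted p. *Hnf4a*, a nuclear receptor shared by stomach, gut, liver and pancreas, averaged 2.64 ± 0.558 FPKM in WT and 5.84 ± 2.80 FPKM in mutants, with overlap (adjusted p = 0.282 from limma). *Esrrg*, an orphan nuclear receptor of acid-secreting cells, had every mutant below every WT bud, at 0.854, 0.561 and 1.09 FPKM against 1.11 to 1.54 FPKM (adjusted p = 0.415 from limma). *Gata4*, a zinc finger factor of the posterior stomach and of the pancreas, averaged 5.24 ± 1.06 FPKM in WT buds and 7.45 ± 2.37 FPKM in mutants, again with overlap.

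The stomach products that could be measured were mostly hormones. All 5 tested had higher means in the mutants, 2 of them at the unadjusted p. *Ghrl*, which encodes ghrelin of stomach and of pancreatic epsilon cells, was by far the most abundant gene of the list, at 62.5 ± 14.5 FPKM in WT and 117 ± 14.3 FPKM in the mutants. Every mutant (107, 111 and 134 FPKM) was above every WT bud (42.9 to 80.8 FPKM), and the difference was 0.93 (SE 0.18, adjusted p = 0.140 from limma, 0.0392 to 0.389 over the alternatives without the replicate block). *Muc1*, an apical mucin of many epithelia including pancreas, also separated, at 2.67, 3.56 and 5.67 FPKM against 1.70 to 2.53 FPKM (adjusted p = 0.287 from limma). *Gast*, the gastrin gene, averaged 3.61 ± 1.97 FPKM in WT buds and 6.02 ± 1.28 FPKM in mutants.

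Of 7 tested intestine regulators, 1 had an unadjusted p under 0.05. *Gata5*, a zinc finger factor of gut endoderm and of mesoderm, was lower, at 2.15, 1.54 and 1.93 FPKM in the mutants against 2.28 to 3.62 FPKM in WT, with no overlap (difference -0.50, SE 0.15, adjusted p = 0.289 from limma). *Tcf7l2*, the Wnt pathway factor, averaged 29.9 ± 3.44 FPKM in WT buds and 33.0 ± 3.38 FPKM in mutants. *Hoxb9*, a posterior Hox gene, averaged 0.661 ± 0.279 FPKM in WT buds and 0.403 ± 0.128 FPKM in mutants.

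Among 10 tested intestine products, 2 were higher at the unadjusted p. *Krt20*, an intermediate filament protein of mature gut epithelium, had the largest difference of the 28 genes. It was at 1.46, 1.11, 1.69, 2.94 and 1.25 FPKM in WT and at 7.36, 5.87 and 11.1 FPKM in the mutants. Every mutant bud was above every WT bud. The difference was 1.76 (SE 0.24, adjusted p = 0.0631 from limma) and ranged from 1.53 to 1.94 when single buds were dropped. Over the alternatives without the replicate block, its limma adjusted p ranged from 0.00642 to 0.207. The keratin genes *Krt8* and *Krt18*, the most abundant of the 19 epithelium markers, separated in the same direction, by 1.36 and 1.19. *Krt7* and *Krt19*, the remaining keratins of that list, were added after their values were seen. They also separated upward, by 1.51 and 2.36, so *Krt19* rose by more than *Krt20*. All 19 markers had a higher mean in the mutants, and the part of epithelium in the *Krt20* value was not tested. *Cck*, the cholecystokinin gene, averaged 13.8 ± 4.26 FPKM in WT buds and 27.2 ± 10.2 FPKM in mutants, with overlap (adjusted p = 0.307 from limma). *Apoa4*, an apolipoprotein of intestine and liver, averaged 0.688 ± 1.12 FPKM in WT buds and 1.92 ± 1.20 FPKM in mutants. Liver markers had higher means in the mutants for 10 of 10 tested genes, summing to 169 to 274 FPKM in WT and 247 to 688 FPKM in the mutants. Their median difference of 0.54 was 0.27 without *Lats1/2PanKO* replicate 3, and *Alb* alone was then lower in the mutants (-0.19). *Ttr* and *Ambp* had the highest levels of the list. The paper lists *Afp*, another of these markers, as a known target of TEAD, transcription factors controlled through the Hippo pathway. The sum therefore need not follow liver alone, and the part of liver in the *Apoa4* value was not tested.

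**Figure D5:**
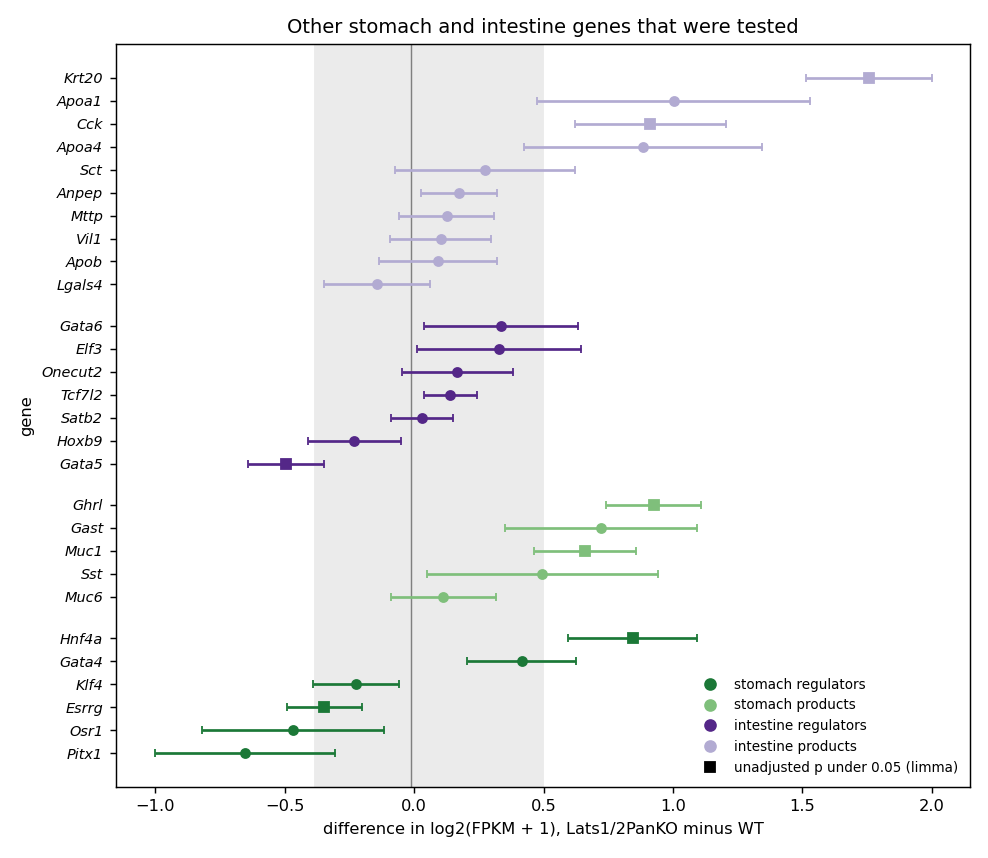
Difference in log2(FPKM + 1), Lats1/2PanKO minus WT, with limma's standard error, for the 28 other stomach and intestine genes that were tested, coloured by organ and role; squares have an unadjusted p under 0.05. The grey band holds the middle 90% of all tested genes (-0.38 to 0.50), and Krt20 lies farthest outside it, at 1.76.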

How the data were processed

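Total RNA of 8 pancreas buds, 1 library each, was sequenced after ribosomal RNA depletion with a stranded kit. The authors aligned reads to GRCm38/mm10 with TopHat2 2.1.0 and deposited FPKM per gene from Cufflinks; the submitters' processing notes also name cutadapt 1.12 and Cuffdiff 2.2.1. The methods state quantile normalization, yet the columns held 16117 to 16982 genes above 0. Values were used as deposited, and all 8 sample columns were mapped to labels by name.

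The 13777 genes averaging 0.5 FPKM or more were fitted with limma 3.58.1 in R 4.3.3 on log2(FPKM + 1), its trend option on, 3 *Lats1/2PanKO* against 5 WT libraries, with Benjamini-Hochberg adjustment at 0.05. limma stands in for Cuffdiff, which needs aligned reads. The added 1 FPKM understates changes of low genes. The labels name no litters, so p-values measure the spread between these buds. The script was tested on simulated data. SE of the 7 genes come from the group variances.

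The FPKM worth of 1 fragment, and the bases taken off each length, were fitted per library on 3866 genes with 1 GENCODE M21 transcript of 500 to 5000 bases; 77.5% to 80.7% of values below 4.5 fragments lay within 5% of a whole step, so fragment numbers are approximate. Implied depth was 7.91e+06 to 1.06e+07 fragments. Coordinates are from GENCODE M21, counted from 1.

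The 7 genes and the lists were chosen with earlier results of these data known. Named genes are the 7 genes, *Lats1*, *Lats2*, relatives of the 7 in their gene families at 0.5 FPKM or more, the 3 genes of smallest p in each stomach or intestine list, abundant markers of other lists, and the 3 genes of nearest pattern. Alternatives were limma's array weights, dropping single libraries, a pseudocount of 0.1 FPKM, scaling by median ratios, quantile normalization, and a filter at 2 FPKM or none. A further alternative was blocking on replicate number, which used replicates 1 to 3 of each genotype and left out WT replicates 4 and 5.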

Additional observations from a re-analysis of the deposited data

Results flagged for a closer look

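In 52 named genes with values above 0, the highest or lowest of the 5 WT buds was compared with the rest by Dixon's criterion, and 6 genes met it. Chance meets it in about 1 in 20 groups of normally distributed values. The named genes were not chosen independently and some are near 0, so the count of 6 is a description only. Among the fate genes these were *Cdx1* in WT replicate 2 (0.0617 FPKM, about 1 fragment) and *Cdx2* in WT replicate 4 (0.468 FPKM). For *Cdx1* the other WT buds were at 0, so any value above 0 meets the criterion. *Apoa4* was also far from the other WT buds in WT replicate 4 (2.65 FPKM). *Lats2* was low in WT replicate 5 (11.6 FPKM). *Selm* (7.54 FPKM) and *Ogfod3* (5.32 FPKM) were low in WT replicate 3, the WT bud in which *Klf5* was also lowest. Both were named for their likeness to *Klf5*, so this follows from how they were chosen.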

How the results depend on the processing

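No gene of the wider list was called as reported, and 1 was called with a pseudocount of 0.1 FPKM (*Krt20*), 2 with limma's array weights (*Krt20* and *Ghrl*), and 0 to 1 as each library was left out (*Krt20*, without WT replicate 4 or *Lats1/2PanKO* replicate 2). Over all tested genes, 2 were called as reported, 18 with that pseudocount and 174 with array weights. Without WT replicate 4 there were 4, and without *Lats1/2PanKO* replicate 2 there were 69. The cause was not tested. At an unadjusted p under 0.05, the count of higher genes was 11 with no filter and 8 with array weights, and 4 to 8 when single libraries were dropped, against 5 as reported. That of lower genes was 1 with a minimum mean of 2 FPKM and 1 to 3 as each library was left out, against 2 as reported. The list had 28 tested genes as reported and with array weights, 63 with no filter and 16 at the minimum of 2 FPKM. Over the whole table, 1553 of 13777 tested genes were under 0.05 as reported and 2578 of 13777 with array weights (limma). With no filter 1887 of 18891 were, and at the minimum of 2 FPKM 1280 of 11467. With a pseudocount of 0.1 FPKM the *Sox2* difference was 0.70 on the log2 scale, against 0.31, which shows how far values of low genes depend on the added constant. It ranged from 0.02 to 0.48 when single libraries were dropped, and was lowest without *Lats1/2PanKO* replicate 3. The *Klf5* difference kept its sign in all 12 alternatives (-0.73 to -0.38). Whether the replicate numbers mark paired buds cannot be told from so few pairs, and the labels name no litters. The correlation of deviations between same-numbered buds was 0.0855, -0.0969 and 0.0685. WT replicates 1 and 3 correlated best with the mutant bud of their own number, and WT replicate 2 did not. The fit with the replicate number as a block used replicates 1 to 3 of each genotype and left out WT replicates 4 and 5. In it, 0 genes of the wider list were called, and 7 were higher and 2 lower at an unadjusted p under 0.05 (limma). Over the whole table, 1300 of 13816 tested genes were under 0.05 in that fit. Of all tested genes, 1 was called with the block, against 2 as reported with all 8 libraries. The same pseudocount gave 1.14 for *Cdx2* (0.22 as reported) and 0.62 for *Cdh17* (0.11 as reported). The *Tff3* difference was 0.0064 to 0.36 when single libraries were dropped. *Tff2*, *Cdx1*, *Cdh17*, *Cdx2* and *Tff3* rest on at most 10 estimated fragments in any library, which limits the precision of their values.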
